A study of Mus with 12 samples.

Results

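Genes of antigen presentation and of macrophages, 10 in all, were followed in the mouse uterus around implantation and before labor. Antigen presentation was represented by the class II chains H2-Aa, H2-Ab1 and H2-Eb1, their chaperone Cd74 and their regulator Ciita, and macrophages by Csf1r, Adgre1, Cd68, Mrc1 and Cd163. Their rows were taken by name, not by their values, as those of both expression tables that carry the gene's name and at least 1 Ensembl transcript. All 10 genes were found, with 1 row each, among 87235 rows in the table of the implantation stage and among 40787 rows in the table of the labor stage. In the coordinates of the implantation table, which match the mouse build GRCm38, H2-Ab1, H2-Aa and H2-Eb1 lie close together on chromosome 17 (34257689 to 34269419, 34282744 to 34287823 and 34305867 to 34316674), and Adgre1 lies on the same chromosome (57358691 to 57483527). Ciita is on chromosome 16 (10480059 to 10526426), Mrc1 on chromosome 2 (14229392 to 14332057) and Cd163 on chromosome 6 (124304656 to 124330527). Cd74 (60803848 to 60812646) and Csf1r (61096781 to 61132150) are neighbours on chromosome 18.

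Class II molecules present peptides from internalised proteins to CD4 T cells. H2-Aa and H2-Ab1 encode the alpha and beta chains of the I-A molecule, H2-Eb1 encodes the beta chain of I-E, Cd74 (the invariant chain) fills the groove until peptide loading, and Ciita is the coactivator that switches the class II genes on. Macrophages depend on the receptor Csf1r, whose ligands are CSF1 and IL-34, and carry the surface marker F4/80 (Adgre1), the lysosomal glycoprotein CD68, the mannose receptor CD206 (Mrc1) and the haemoglobin scavenger CD163, the latter pair being typical of tissue-resident cells. In the pregnant uterus macrophages populate the stroma and the muscle layer, and CSF1 made under the control of ovarian steroids is a known growth factor for them.

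The study collected the whole uterus of 12 pregnant adult ICR mice, an outbred strain, with 3 mice on each of 4 embryonic days, of which E0.5 and E4.5 make up the implantation stage and E15.5 and E18.5 that of labor. No mouse was treated and none carried a stated allele, and the 1 library per mouse mixes all layers of the organ. Expression is given as FPKM, fragments scaled to transcript length and to the size of the library, so that levels of different genes within a library are per length. The tables hold different sets of rows and it is not stated that they were normalized together, so levels were compared only within a table.

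The implantation libraries held 58020989 to 70906881 counts each, while the labor table holds no counts from which a depth could be computed. Replicate 3 of E4.5 stood apart. Its summed FPKM over 9 ovary genes was 1362, against 4.29 to 6.49 in the other 5 implantation libraries, and the uterine genes Hand2 (1.13 FPKM against 20.6 and 22.0) and Hoxa10 (a row shared with Hoxa9, 1.83 FPKM against 22.2 and 26.4) were far below their level in the other E4.5 libraries. The summed FPKM of 5 fat genes was 226 in replicate 1 of E0.5, 74.3 and 76.1 in the other E0.5 libraries, and 22.3, 7.50 and 79.9 at E4.5. Among the labor libraries, the summed FPKM of 7 yolk sac genes ran from 11.1 to 881, highest in replicate 3 of E15.5 and next in replicate 2 of E18.5 (626), and replicate 1 of E15.5 held 1342 FPKM of the decidual prolactin Prl8a2 against 72.1 and 86.0 in its group. Changes in the calls of the 10 genes without these libraries are given below, with the main changes in the related lists, and the part of these tissues in the results was not tested.

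**Figure D1:**
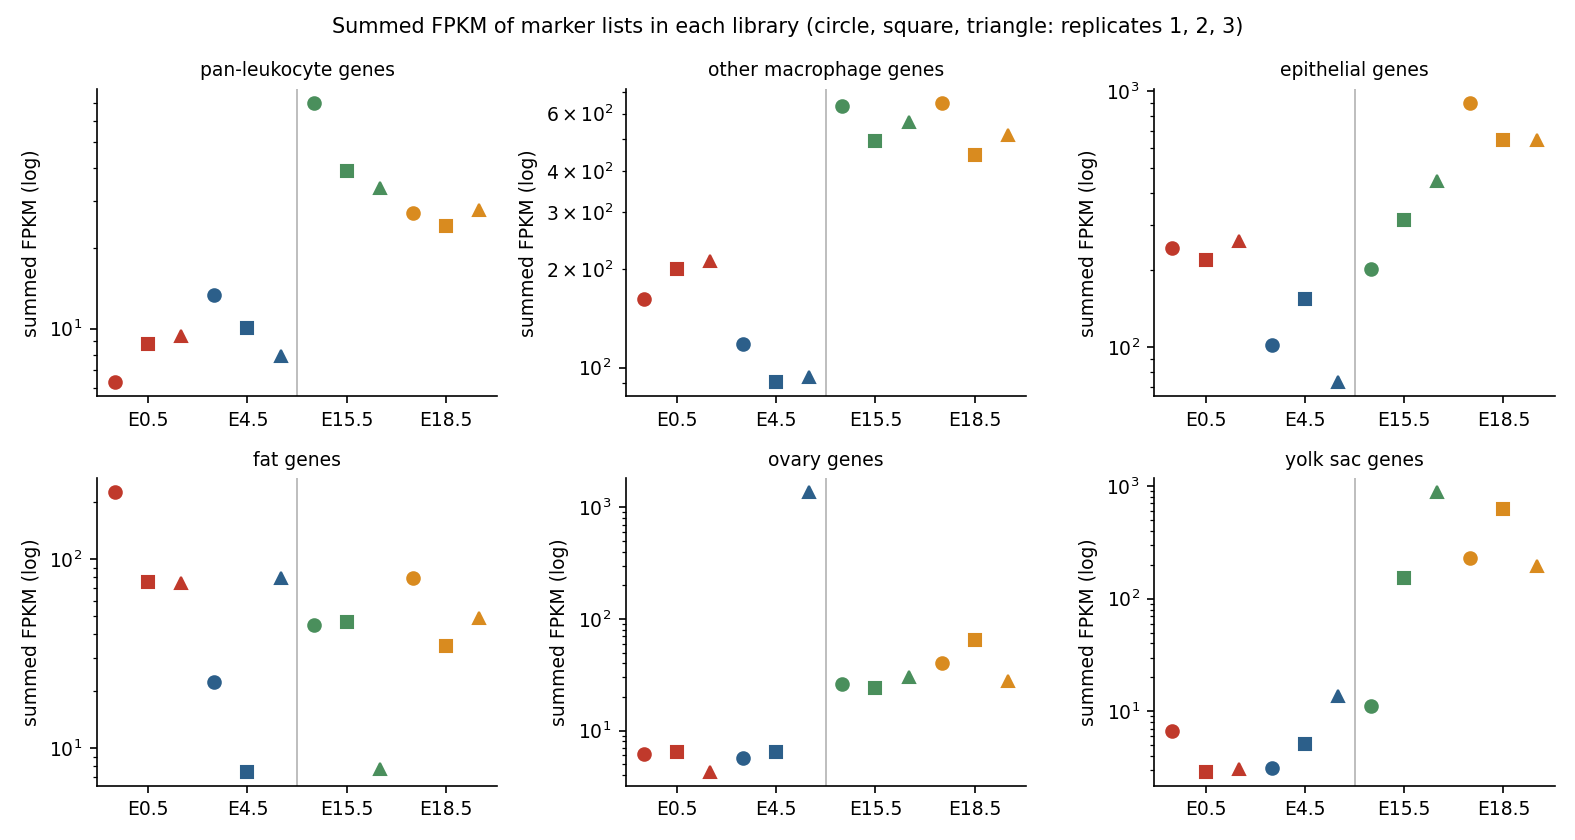
Summed FPKM (log scale) of 6 marker lists in each of the 12 libraries, by embryonic day; colours mark the day, symbols the replicate, and the grey line separates the tables. Replicate 3 of E4.5 has 1362 summed FPKM of ovary genes against at most 6.49 in the other implantation libraries, and replicate 1 of E0.5 has the highest sum of fat genes, 226.

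The comparison of E0.5 with E4.5 asked how these genes change while the uterus becomes receptive. The macrophage genes Csf1r, Adgre1, Mrc1 and Cd163 and the class II regulator Ciita were higher at E0.5, by 2.14 to 4.99 times in the fitted model, and in each of them all 3 E0.5 libraries lay above all 3 E4.5 libraries. The class II chains and Cd74 overlapped between the days, with fitted log2 fold changes between -0.39 and 0.28. The median log2 fold change was 1.65 over the 5 macrophage genes, or 1.76 over 4 without Cd68, whose row is merged with other genes at this stage, and 0.11 over the 5 antigen presentation genes, beside -0.01 over all 59732 rows tested and -0.14 over the 11682 protein-coding rows with at least 1 FPKM. By edgeR's quasi-likelihood F-test, with p-values adjusted after Benjamini and Hochberg, 1 of the 10 genes was called higher at E0.5 (Csf1r) and 0 lower, where 0.763% of all rows were called higher. The study's own criterion asks for a log2 fold change of 1 or more in size and an unadjusted p below 0.05. By it 5 of the 10 were higher, where 6.37% of all rows were and 6.03% of the protein-coding rows with at least 1 FPKM. The 5 genes without overlap compare with 12.8% of rows in which every E0.5 library was the higher. Because RNA of the whole organ was sequenced, fewer cells of a type and less RNA per cell cannot be told apart.

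**Figure D2:**
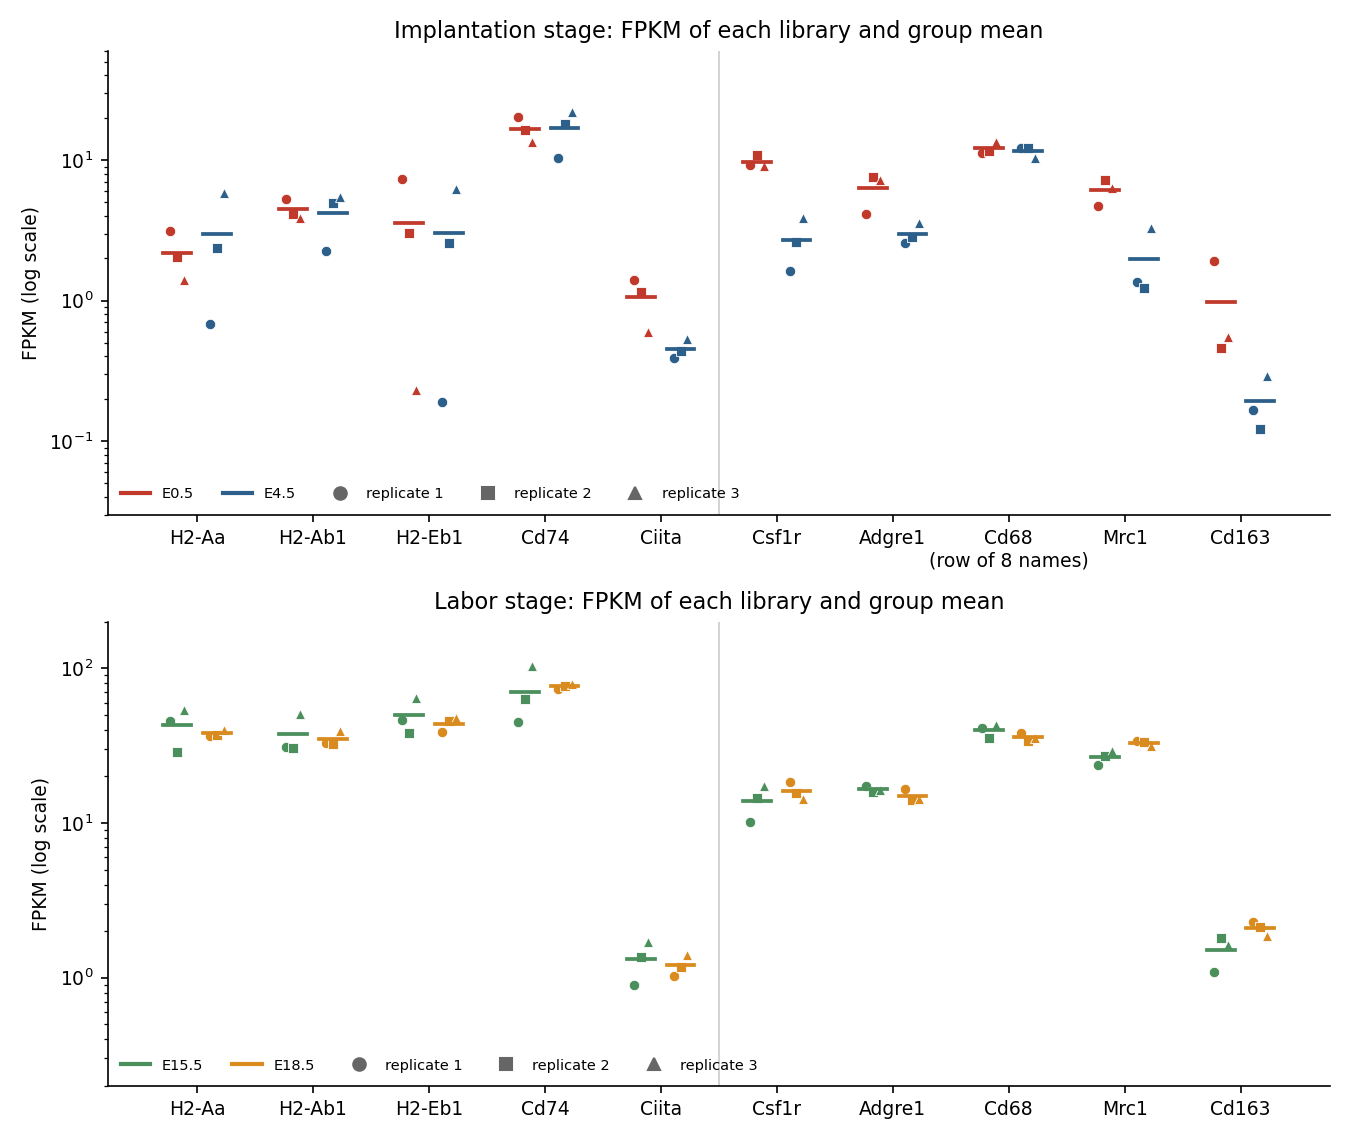
FPKM (log scale) of the 10 genes in each library at the implantation stage (top, E0.5 and E4.5) and the labor stage (bottom, E15.5 and E18.5), with symbols for replicates, short lines for group means and a grey line between antigen presentation and macrophage genes. Csf1r, Adgre1, Mrc1, Cd163 and Ciita separate E0.5 from E4.5, and H2-Eb1 spreads from 0.233 to 7.39 FPKM within E0.5.

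Csf1r had the smallest p of the 10 genes. Its level was 9.30, 10.8 and 9.03 FPKM in the E0.5 mice and 1.62, 2.61 and 3.86 FPKM in the E4.5 mice. The E0.5 libraries agreed within 1.20 times, and the highest E4.5 library reached less than the lowest E0.5 library. Mean levels were 9.71 ± 0.965 and 2.70 ± 1.12 FPKM (SD, n = 3 each), and the log2 fold change was 1.88 (standard error 0.30, 95% confidence interval 1.17 to 2.59, adjusted p = 0.0449 from edgeR). This adjusted p rose above the threshold when a single library was left out, to 0.155, 0.195 and 0.156 without replicates 1, 2 and 3 of E0.5 and to 0.109 and 0.123 without replicates 1 and 2 of E4.5, whereas it was 0.00459 without the ovary-rich replicate 3 of E4.5. In log2 terms the fold change stayed between 1.63 and 2.19 in these 6 fits of edgeR.

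Adgre1, which encodes F4/80, had 4.12, 7.55 and 7.23 FPKM at E0.5 and 2.55, 2.82 and 3.58 at E4.5. Replicate 1 of E0.5, the library richest in fat genes, was the lowest of its day, and the days did not overlap. The log2 fold change was 1.10 (standard error 0.28, 95% confidence interval 0.43 to 1.77, adjusted p = 0.121 from edgeR), and it was 1.34 without that library and 1.22 without replicate 3 of E4.5. Over the 6 edgeR fits with a single library left out it ran from 0.94 to 1.34, with adjusted p-values of 0.0661 to 0.344. At 0.94 it falls short of the study's criterion, which Adgre1 met in 12 of 15 alternatives.

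Mrc1, the mannose receptor, had 4.74, 7.21 and 6.28 FPKM at E0.5 and 1.36, 1.24 and 3.31 at E4.5. Replicate 3 was the highest E4.5 library, as it was for Csf1r and Adgre1. This gave a log2 fold change of 1.65 (standard error 0.40, 95% confidence interval 0.69 to 2.61, adjusted p = 0.111 from edgeR). Without replicate 3 of E4.5 it was 2.21, with an adjusted p of 0.00542 from edgeR, in a fit that called 3.06% of all rows higher at E0.5.

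Cd163 had the largest fitted change of the 10 genes and rested in part on 1 library. Its level was 1.91, 0.456 and 0.549 FPKM at E0.5 and 0.167, 0.122 and 0.292 at E4.5, from 60 to 959 counts. Replicate 1 of E0.5 was 4.18 times the lowest library of its day, and the other E0.5 libraries were still above every E4.5 library. The log2 fold change was 2.32 (standard error 0.64, 95% confidence interval 0.78 to 3.85, adjusted p = 0.142 from edgeR) and fell to 1.40 without replicate 1 of E0.5. The ratio of Cd163 to Mrc1 was 0.402 in that library and 0.0633 to 0.122 in the other implantation libraries.

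With both doubted libraries left out, replicate 1 of E0.5 and replicate 3 of E4.5, edgeR called Csf1r (log2 fold change 2.24, adjusted p = 0.0150), Adgre1 (1.46, adjusted p = 0.0202) and Mrc1 (2.36, adjusted p = 0.00776), while Cd163 (1.77, adjusted p = 0.0650) and Ciita (1.07, adjusted p = 0.187) did not pass the adjusted threshold. In this setting, chosen after the values had been seen, 1.98% of all rows were called higher.

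Cd68 could not be measured on its own at this stage, because the implantation table merges it into a row of 8 gene names that includes the translation factor Eif4a1 and Senp3. That row had 11.2, 11.6 and 13.5 FPKM at E0.5 and 12.2, 12.1 and 10.3 at E4.5. The days overlapped, and the log2 fold change was 0.08 (95% confidence interval -0.34 to 0.49, adjusted p = 0.852 from edgeR). The value says nothing of CD68 itself.

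Among the antigen presentation genes, Ciita alone separated the days. It had 1.41, 1.15 and 0.602 FPKM at E0.5 and 0.391, 0.437 and 0.529 at E4.5, from 319 to 1152 counts. Replicate 3 of E0.5 was close to the highest E4.5 library. Its log2 fold change was 1.23 (standard error 0.34, 95% confidence interval 0.43 to 2.03, adjusted p = 0.138 from edgeR). With limma on log2(FPKM + 0.1) in place of counts, it was 1.0 with an unadjusted p of 0.0801.

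The genes that Ciita is known to drive did not separate the days. Within each day, the order of the libraries by Ciita was also their order by H2-Aa, H2-Ab1, H2-Eb1 and Cd74. H2-Aa had 3.14, 2.03 and 1.41 FPKM at E0.5 and 0.681, 2.38 and 5.84 at E4.5. The E4.5 libraries spanned 8.58 times and enclosed the E0.5 libraries, and the log2 fold change of -0.39 (95% confidence interval -2.04 to 1.25, adjusted p = 0.809 from edgeR) became 0.52 without replicate 3 of E4.5. H2-Ab1 had 5.31, 4.16 and 3.89 FPKM at E0.5 and 2.25, 4.93 and 5.48 at E4.5, with a log2 fold change of 0.11 (95% confidence interval -0.67 to 0.88, adjusted p = 0.896 from edgeR). Replicate 1 was the lowest E4.5 library for both chains and replicate 3 the highest.

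Cd74 was the highest of the 10 genes at this stage. It had 20.2, 16.5 and 13.4 FPKM at E0.5 and 10.4, 18.0 and 22.0 at E4.5. The log2 fold change was 0.01 (95% confidence interval -0.65 to 0.68, adjusted p = 0.986 from edgeR) and the interval covers levels at E0.5 of 0.635 to 1.60 times those at E4.5.

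H2-Eb1 differed far more within a day than between days. It had 7.39, 3.04 and 0.233 FPKM at E0.5 and 0.189, 2.58 and 6.25 at E4.5, from 1228, 440 and 41 counts and from 32, 410 and 989 counts. The highest and the lowest library differed 31.8 times within E0.5 and 33.1 times within E4.5, while H2-Ab1 differed 1.36 and 2.43 times in the same libraries. The log2 fold change of 0.28 (standard error 1.31, 95% confidence interval -2.83 to 3.40, adjusted p = 0.933 from edgeR) covers large changes in either direction, and it was -0.82 without replicate 1 of E0.5, -0.29 without replicate 1 of E4.5 and 1.37 without replicate 3 of E4.5.

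Ratios within a library set the class II transcripts against each other. Which cells the transcripts came from was not measured. Cd74 over H2-Ab1 stayed between 3.43 and 4.62 in the 6 implantation libraries. H2-Aa over H2-Ab1 ran from 0.302 to 1.07. H2-Eb1 over H2-Ab1 was 1.39, 0.731 and 0.0597 at E0.5 and 0.0837, 0.523 and 1.14 at E4.5, a range of 23.3 times within E0.5 and of 13.6 times within E4.5. In the labor libraries the same ratio lay between 1.19 and 1.5. The rows of H2-Eb1 and H2-Ab1 hold 5 and 8 Ensembl transcripts at implantation and 1 and 3 at labor. The ratios of the stages were therefore not compared.

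**Figure D3:**
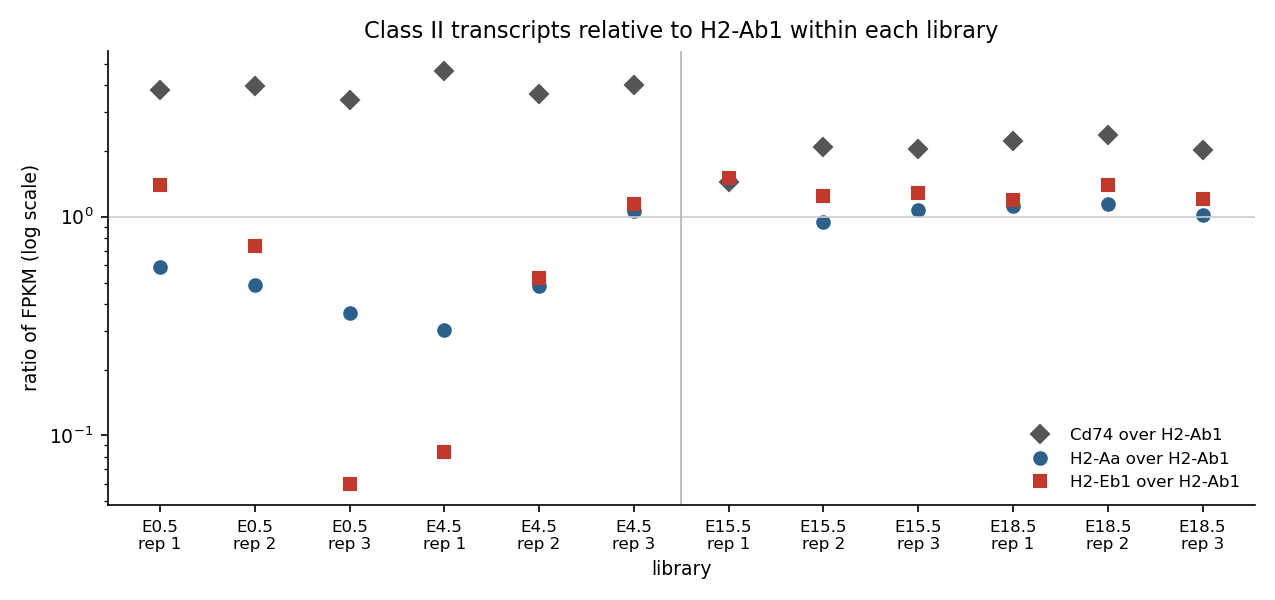
Ratio of FPKM (log scale) of Cd74, H2-Aa and H2-Eb1 to H2-Ab1 in each of the 12 libraries, with the grey vertical line between the tables and the horizontal line at 1. H2-Eb1 over H2-Ab1 runs from 0.0597 to 1.39 in the implantation libraries and from 1.19 to 1.5 in the labor libraries. The rows hold different transcripts in each table, so these ranges are not compared.

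Among ratios of macrophage genes, 1 of 3 separated the days. Csf1r over Adgre1 was 2.25, 1.43 and 1.25 at E0.5 and 0.635, 0.925 and 1.08 at E4.5, without overlap. Mrc1 over Adgre1 was 0.869 to 1.15 at E0.5 and 0.439 to 0.925 at E4.5, and Cd163 over Mrc1 overlapped as well. Ptprc, the leukocyte marker CD45, did not share their direction, with 0.742, 1.36 and 1.11 FPKM at E0.5 and 1.73, 1.88 and 0.659 at E4.5 (log2 fold change -0.41, adjusted p = 0.676 from edgeR). Of the 4 pan-leukocyte genes 0 were called by edgeR in either direction by either criterion, at an unadjusted p under 0.05 included, and their median log2 fold change was -0.33.

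Several further macrophage genes were also higher at E0.5. Of 27 such genes 24 were tested, and by the study's criterion 10 were higher at E0.5 and 0 lower, with a median log2 fold change of 0.92. The log2 fold change was positive for 19 of the 24, and 15 had every E0.5 library above every E4.5 library while 0 had every library below. Without replicate 3 of E4.5 the study's criterion gave 12 higher and edgeR's adjusted p 7, without replicate 1 of E0.5 10 and 1 (Itgam), and without both doubted libraries 11 and 4, with 0 lower in each setting. By the adjusted p of edgeR 2 were called, Itgam (CD11b, an integrin of myeloid cells, 5.37, 7.88 and 9.53 FPKM against 0.666, 0.569 and 0.763 FPKM, log2 fold change 3.52, adjusted p = 0.0103) and Siglec1 (CD169, 2.76, 5.49 and 5.86 FPKM against 0.759, 0.486 and 0.871 FPKM, log2 fold change 2.75, adjusted p = 0.0337). The endotoxin coreceptor Cd14 (log2 fold change 2.0, adjusted p = 0.0779 in edgeR's test) and the Fc receptor Fcgr1 (1.72, adjusted p = 0.0908) met the study's criterion, as did Sirpa, Lyve1, Folr2, Laptm5, Clec10a and Spi1. Lyz2, lysozyme, had 31.7 to 40.0 FPKM at E0.5 and 17.8 to 31.7 at E4.5 (log2 fold change 0.68, adjusted p = 0.298 from edgeR). Of the complement genes C1qa, C1qb and C1qc the log2 fold changes were 1.0, 0.31 and 0.61, and C1qc alone did not overlap between the days. Aif1 (0.10) and Tyrobp (-0.18) overlapped. The rows of Aif1, Clec10a and Lyz2 also carry the names Lst1, Mgl2 and Lyz1, and that of Itgam the predicted genes Gm49368 and Gm45700, so their values are not of a single gene.

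**Figure D4:**
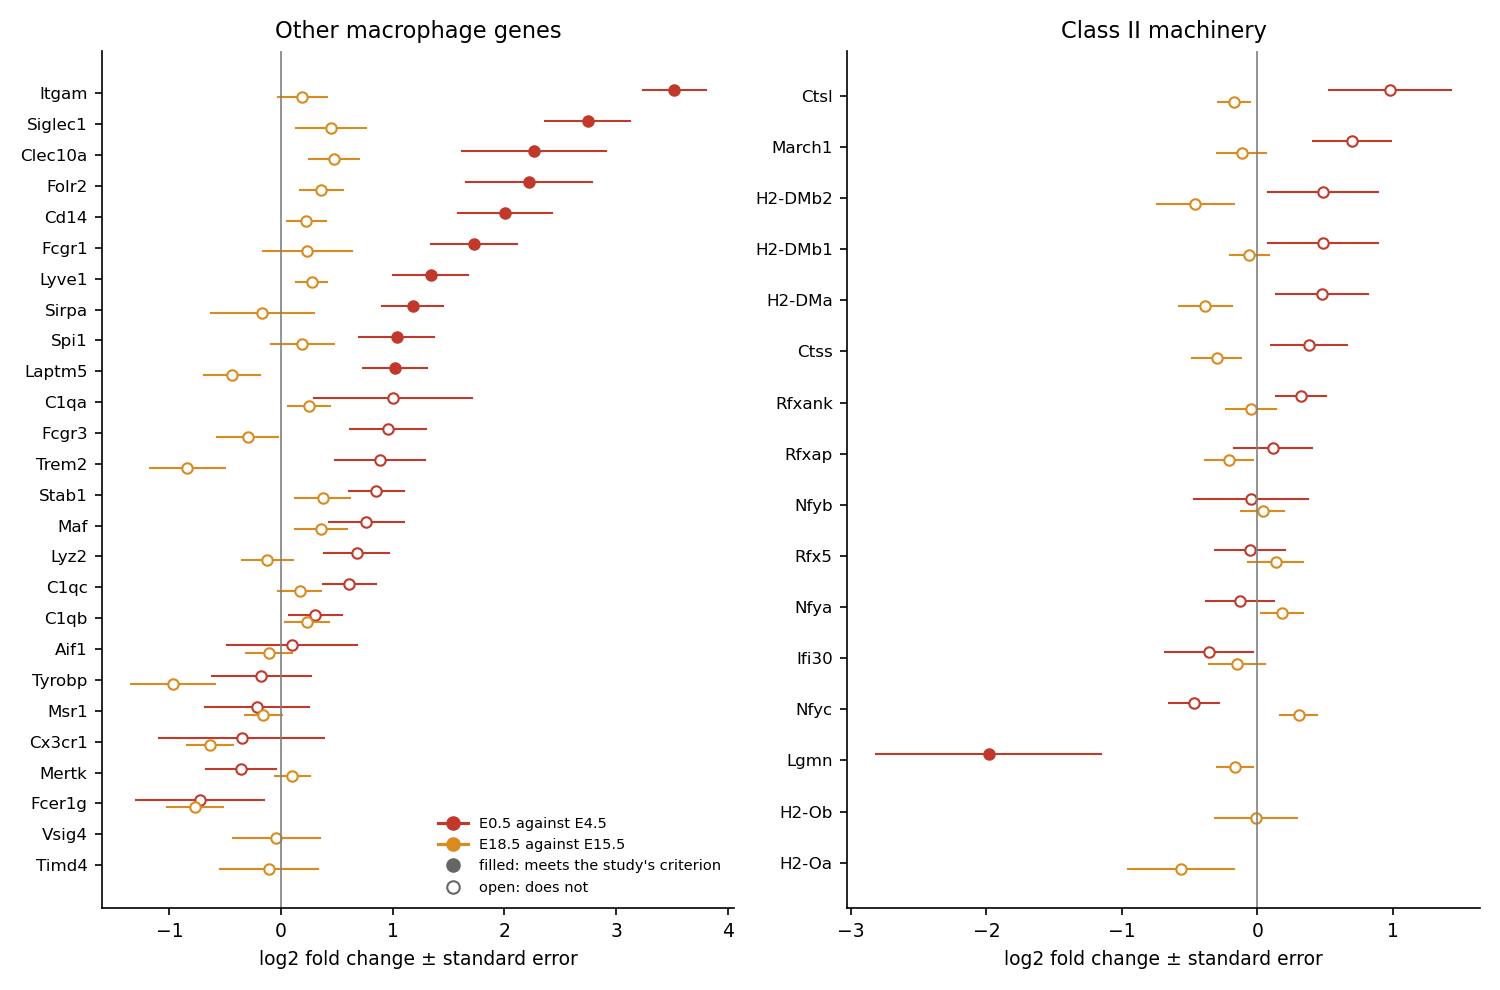
Log2 fold change with its standard error for the tested genes of the macrophage list outside the members (left) and of the class II machinery (right), in the comparisons E0.5 against E4.5 and E18.5 against E15.5; filled points meet the study's criterion. At the implantation stage 10 of 24 macrophage genes are filled to the right of 0 and 0 to the left, and 1 gene of the class II machinery (Lgmn) is filled to the left.

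In the class II machinery calls were few. Of its 17 genes 14 were tested, H2-DMb1 and H2-DMb2 from 1 shared row, and the median log2 fold change over the 13 rows was 0.11. By the study's criterion 0 were higher at E0.5 and 1 was lower, the lysosomal protease Lgmn, which had 10.7 to 14.3 FPKM at E0.5 and 17.0, 14.4 and 128 at E4.5, the highest value being that of the ovary-rich library. The protease Ctsl had 25.6, 30.3 and 25.5 FPKM against 7.65, 8.80 and 25.8 FPKM (log2 fold change 0.98, adjusted p = 0.324 from edgeR). Without the ovary-rich library Lgmn no longer met the criterion and Ctsl did, higher at E0.5, and without replicate 1 of E0.5 neither did.

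In the class I pathway, which presents peptides from within the cell, 4 of 14 genes were higher at E0.5 by the study's criterion and 0 lower. The immunoproteasome subunits Psmb10 (log2 fold change 1.23, adjusted p = 0.0741 from edgeR) and Psmb9 (1.37, adjusted p = 0.0799), the class I chain H2-D1 (1.43, adjusted p = 0.136) and Nlrc5, the class I counterpart of Ciita (1.03, adjusted p = 0.150), made up the 4. H2-D1 had 134, 163 and 152.6 FPKM at E0.5 and 81.9, 53.9 and 29.8 at E4.5. The chaperone Calr lay the other way, with 27.7 to 46.0 FPKM at E0.5 and 70.1 to 72.4 at E4.5 (log2 fold change -1.0, just short of the study's criterion). Canx (-0.87, adjusted p = 0.0562 from edgeR) and Pdia3 (-0.62) were likewise lower at E0.5 without overlap. Across the 14 genes, 7 were higher and 3 lower at E0.5 without overlap. The criterion gave 3 higher (H2-D1, Psmb9 and Psmb10) and 1 lower (Calr) without replicate 3 of E4.5, and the same 3 higher without replicate 1 of E0.5.

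Of the interferon-gamma axis, which induces Ciita, 7 of 8 genes were tested, and Jak1 alone met the study's criterion, lower at E0.5 (log2 fold change -1.09, adjusted p = 0.0943 from edgeR). Jak1 did not meet it without replicate 3 of E4.5 or without replicate 1 of E0.5. Its partner Jak2 had 14.5 to 25.5 FPKM at E0.5 and 6.19 to 20.1 at E4.5. The log2 fold change was positive for 5 of the 7 genes, with a median of 0.28. Irf1 (0.81) and Ifngr2 (0.75) were higher at E0.5 without overlap, short of the criterion's fold change. Ifngr2 passed edgeR's adjusted p without replicate 3 of E4.5 and without both doubted libraries. Of 7 colony-stimulating factors and receptors 6 were tested, and Csf3 (log2 fold change 1.74, adjusted p = 0.268 from edgeR) and its receptor Csf3r (1.88, adjusted p = 0.261) were higher at E0.5 by the study's criterion, Csf3r not without replicate 3 of E4.5. The ligands of Csf1r did not share its direction. Csf1 had 2.31, 1.88 and 2.34 FPKM at E0.5 and 3.44, 3.49 and 1.93 at E4.5, with a log2 fold change of -0.44, and Il34 one of -0.21. Csf2ra, the GM-CSF receptor chain, had 3.62 to 4.35 FPKM at E0.5 and 2.50 to 3.18 at E4.5.

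Among markers of other antigen-presenting and blood cells, calls in both directions were found in the dendritic cell genes alone. Of 15 dendritic cell genes 14 were tested, with Irf4 (log2 fold change 2.21, adjusted p = 0.0641 from edgeR) and the costimulatory genes Cd80 (1.19) and Cd86 (1.20) higher at E0.5 by the study's criterion and Fscn1 (-1.32, also made outside dendritic cells) lower. Without replicate 3 of E4.5 there were 3 higher and 3 lower, Itgax and Xcr1 joining Fscn1, and without replicate 1 of E0.5 Cd86 was not called. The transcription factor Zbtb46 had 1.75 to 2.25 FPKM at E0.5 and 2.68 to 5.03 at E4.5. Of 6 monocyte genes 5 were tested, and Plac8 was higher at E0.5 by the study's criterion (159, 150.4 and 164 FPKM against 76.9, 48.8 and 9.51 FPKM, log2 fold change 1.79), at E0.5 above the level of all 10 members and not called without replicate 1 of E0.5, while Ccr2 had 2.58 to 3.96 FPKM against 1.16 to 2.82 FPKM. The B cell genes, which would mark another class II cell, summed to 0.978 to 2.15 FPKM at E0.5 and 0.819 to 1.53 at E4.5, and 0 of 4 tested met the study's criterion, or 1 without replicate 3 of E4.5 (Cd79b, higher). The T cell genes summed to 1.06 to 1.79 FPKM and 0.591 to 0.817 FPKM, and 1 of 2 tested, Trac, was higher at E0.5 by the study's criterion.

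The remaining marker lists give the surroundings of these changes. Of 10 neutrophil genes 4 were tested and 2 were higher at E0.5 by the study's criterion, Ltf (347 to 537 FPKM against 2.99 to 20.02 FPKM, adjusted p = 0.0337 from edgeR), which the uterine epithelium is also known to make, and Ly6g. The other tested genes, S100a8 and Camp, had log2 fold changes of -2.0 and -2.19 without meeting it, and the defining genes S100a9 and Retnlg were at 0 in all 6 libraries. Of 6 epithelial genes 3 were higher at E0.5 by the study's criterion, and Krt8 (adjusted p = 0.0248) and Krt19 (adjusted p = 0.0469) also passed edgeR's adjusted p; the other, Cdh1, was not called without replicate 3 of E4.5. Of 9 ovary genes 6 were lower by the study's criterion, and without replicate 3 of E4.5 only Cyp11a1 was, which had 0.951 and 0.814 FPKM in the other E4.5 libraries and 0.051 to 0.101 FPKM at E0.5. Of 5 fat genes 0 met it, and 4 were higher at E0.5 without that library (Adipoq, Plin1, Cfd and Cidec). The counts were 0 of 5 for smooth muscle, 1 lower of 5 for uterine identity (Hand2, which was not called without replicate 1 of E0.5, and also the row of Hoxa9 and Hoxa10 without replicate 3 of E4.5), 1 higher and 1 lower of 3 for yolk sac, 0 of 1 for trophoblast, and 2 higher and 1 lower of 5 for decidua, where Bmp2 was lower at E0.5 (adjusted p = 0.0187 from edgeR). Without replicate 1 of E0.5 edgeR's adjusted p called none of Ltf, Krt8, Krt19 and Bmp2, all of which still met the study's criterion. Whether the shifts in epithelial and decidual genes take part in the lower transcript levels of Csf1r, Adgre1, Mrc1 and Cd163 at E4.5 was not tested.

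The comparison of E18.5 with E15.5 asked the same of the days before labor. By the adjusted p of limma 0 of the 10 genes were called in either direction, where 0.0259% of 30928 rows were called, and by the study's criterion 0 were called, where 6.05% of rows were and 4.04% of the protein-coding rows with at least 1 FPKM. At an unadjusted p under 0.05 limma gave 1 of the 10, Mrc1, where 12.2% of rows were below that p. The median log2 fold change was 0.24 over the macrophage genes and -0.09 over the antigen presentation genes, beside 0.02 over all rows tested. Mrc1 and Cd163 were the genes whose days did not overlap, both higher at E18.5, beside 10.9% of all rows.

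**Figure D5:**
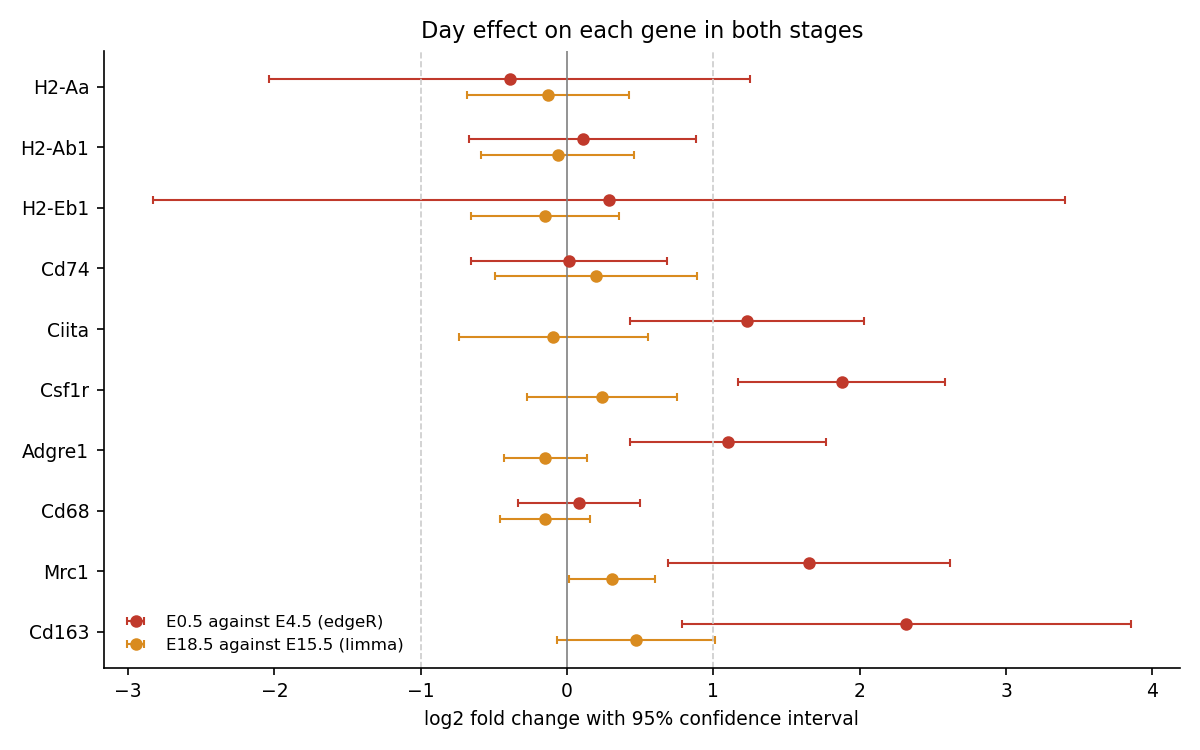
Log2 fold change (points) with its 95% confidence interval (bars) of each gene at the implantation stage (E0.5 against E4.5, edgeR) and at the labor stage (E18.5 against E15.5, limma), with dashed lines at a log2 fold change of 1 in either direction. At implantation the intervals of Ciita, Csf1r, Adgre1, Mrc1 and Cd163 lie above 0, and at labor that of Mrc1 alone does.

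Mrc1 had 23.8, 27.3 and 29.1 FPKM at E15.5 and 34.2, 33.2 and 31.6 FPKM at E18.5. The E18.5 libraries agreed within 1.08 times and lay above the E15.5 libraries, the lowest of which was replicate 1. Its log2 fold change was 0.31 (standard error 0.12, 95% confidence interval 0.01 to 0.60, unadjusted p = 0.0435 and adjusted p = 0.394 from limma), and 0.22 without replicate 1 of E15.5. Cd163 had 1.09, 1.81 and 1.62 FPKM at E15.5 and 2.30, 2.11 and 1.85 FPKM at E18.5, so that the days barely parted. Its log2 fold change was 0.47 (standard error 0.23, 95% confidence interval -0.07 to 1.01, adjusted p = 0.462 from limma) and 0.26 without replicate 1 of E15.5.

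The other macrophage genes overlapped between the days. Csf1r had 10.1, 14.4 and 17.3 FPKM at E15.5 and 18.4, 15.8 and 14.3 FPKM at E18.5, with a log2 fold change of 0.24 (95% confidence interval -0.27 to 0.75) that was 0.03 without replicate 1 of E15.5. Adgre1 was even, with 17.5, 16.0 and 16.3 FPKM at E15.5 and 16.6, 14.1 and 14.3 FPKM at E18.5 and a log2 fold change of -0.15 (95% confidence interval -0.43 to 0.13). Cd68 has a row of its own in the labor table, where it had 40.9, 35.4 and 43.3 FPKM at E15.5 and 38.1, 33.8 and 35.4 FPKM at E18.5, a log2 fold change of -0.15 (95% confidence interval -0.46 to 0.15). In fold terms the intervals cover levels at E18.5 of 0.742 to 1.10 times those at E15.5 for Adgre1 and of 0.727 to 1.11 times for Cd68.

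The class II genes were among the higher of the 10 genes at this stage. H2-Aa had 45.9, 29.0 and 54.2 FPKM at E15.5 and 36.8, 37.2 and 40.0 FPKM at E18.5, and H2-Ab1 31.1, 30.5 and 50.7 FPKM at E15.5 and 32.8, 32.5 and 39.4 FPKM at E18.5. H2-Eb1 had 46.7, 38.1 and 64.8 FPKM at E15.5 and 38.9, 45.5 and 47.5 FPKM at E18.5. For all 3 chains replicate 3 was the highest E15.5 library and the E18.5 libraries lay within the range of E15.5. Their log2 fold changes were -0.13 (95% confidence interval -0.69 to 0.42), -0.06 (-0.59 to 0.46) and -0.15 (-0.66 to 0.35), with adjusted p-values of 0.844, 0.928 and 0.801 from limma. Without replicate 3 of E15.5, the library richest in yolk sac genes, the log2 fold changes were 0.057, 0.17 and 0.0548. The criterion gave 0 of the 10 members with this library and replicate 2 of E18.5 both left out.

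Cd74 had 45.02, 63.7 and 103 FPKM at E15.5 and 73.1, 76.6 and 79.7 FPKM at E18.5, and Ciita had 0.894, 1.35 and 1.71 FPKM at E15.5 and 1.03, 1.16 and 1.41 FPKM at E18.5. In both, the E15.5 libraries enclosed the E18.5 libraries, with replicate 1 the lowest and replicate 3 the highest. The log2 fold change of Cd74 was 0.20 (95% confidence interval -0.49 to 0.89) and became -0.09 without replicate 1 of E15.5, and that of Ciita was -0.09 (95% confidence interval -0.74 to 0.55). The coefficient of variation of Cd74 was 42.1% over the E15.5 mice and 4.38% over the E18.5 mice, and that of H2-Aa 29.9% and 4.54%. The difference in spread rests on 3 mice a day and was not tested.

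The related lists gave few calls at the labor stage. Of 26 other macrophage genes tested and of 16 genes of the class II machinery, 14 of the class I pathway and 7 of the interferon-gamma axis, 0 met the study's criterion in limma's test. At an unadjusted p under 0.05 the macrophage list included Cx3cr1 (log2 fold change -0.63), Fcer1g (-0.77), Tyrobp (-0.97) and Trem2 (-0.84), all lower at E18.5. Without replicate 3 of E15.5 Tyrobp and Trem2 met the study's criterion. Tyrobp had 98.7, 39.9 and 39.4 FPKM at E15.5 and 21.4 to 32.2 FPKM at E18.5, with replicate 1 of E15.5 highest, where Csf1r, Mrc1, Cd163 and Cd74 had their lowest E15.5 value. Of the most abundant genes of these lists, Lyz2 had 173 to 228 FPKM at E15.5 and 158 to 239 FPKM at E18.5, C1qb 49.5 to 63.8 and 54.7 to 84.4 FPKM, Lgmn 86.5 to 95.6 and 75.6 to 87.1 FPKM, Ctsl 58.6 to 60.3 and 50.1 to 55.9 FPKM, and B2m 673 to 966 and 713 to 747 FPKM.

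Among colony-stimulating factors, Il34 met the study's criterion and was higher at E18.5 (1.46, 1.03 and 1.52 FPKM against 0.330, 0.710 and 0.927 FPKM, log2 fold change 1.0, adjusted p = 0.345 from limma), the only call among 6 genes tested, and did not meet it without replicate 1 of E15.5. Csf1 had 62.8, 139 and 149 FPKM at E15.5 and 81.5, 102 and 79.5 FPKM at E18.5, and was lowest in replicate 1 of E15.5. By the study's criterion 2 of 15 dendritic cell genes were lower at E18.5, the transcription factor Irf8 (log2 fold change -1.30, adjusted p = 0.159 from limma) and the homing receptor Ccr7 (-1.11, adjusted p = 0.247), of which Irf8 alone did so without replicate 1 of E15.5. Of 6 monocyte genes Nr4a1 was higher (1.60, adjusted p = 0.167). Only 1 of the 6 had a positive log2 fold change, and their median was -0.54. Ccr2 (-0.62) and Ace (-0.63) were lower at E18.5 without overlap.

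All 4 pan-leukocyte genes had a negative log2 fold change, with a median of -0.94, and Coro1a met the study's criterion (-1.07, adjusted p = 0.353 from limma). Ptprc had 9.93, 6.96 and 5.85 FPKM at E15.5 and 3.64, 3.88 and 3.60 FPKM at E18.5 (log2 fold change -0.98, unadjusted p = 0.00206 and adjusted p = 0.159 from limma). Without replicate 1 of E15.5 0 of the 4 met it, and without replicate 3 of E15.5 3 did (Ptprc, Coro1a and Lcp1). Of the macrophage members, Csf1r, Mrc1 and Cd163 had positive log2 fold changes and Adgre1 (-0.15) and Cd68 (-0.15) negative ones. Mrc1 over Ptprc was 2.39 to 4.98 at E15.5 and 8.56 to 9.40 at E18.5, Csf1r over Ptprc 1.02 to 2.96 and 3.97 to 5.07, and Adgre1 over Ptprc 1.76 to 2.79 and 3.64 to 4.57, each without overlap. At the implantation stage the same ratios were 5.31 to 6.39 at E0.5 and 0.657 to 5.02 at E4.5 for Mrc1, 7.96 to 12.5 and 0.935 to 5.86 for Csf1r, and 5.56 to 6.49 and 1.47 to 5.43 for Adgre1. In both stages each of the 3 ratios was higher on the day with the lower mean level of Ptprc. Because Ptprc is the denominator of all 3, a lower Ptprc raises each of them by itself, so this is no separate observation.

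By the study's criterion 4 of 6 epithelial genes were higher at E18.5 (Krt8, Krt19, Krt7 and Cdh1), 2 of 5 neutrophil genes tested (Ltf and Cxcr2), 2 of 5 ovary genes (Cyp17a1 and Hsd3b1), 1 of 5 trophoblast genes (Tpbpa) and 1 of 5 decidua genes (Wnt4), and 1 of 7 yolk sac genes was lower (Amn). The counts were 0 for B cell genes (2 tested), T cell genes (3), smooth muscle, uterine identity and fat genes (5 each). Without replicate 1 of E15.5 the trophoblast and the epithelial count were 3 higher each, and without replicate 3 of E15.5 the epithelial count was 5 higher, the neutrophil count 1 higher and the yolk sac count 2 higher and 1 lower. Among the 5 neutrophil genes 3 had a positive log2 fold change, while S100a8 (-2.71) and S100a9 (-0.25) had a negative one. Cxcr2 overlapped between the days. Among the 5 ovary genes 4 had a positive log2 fold change, while Cyp11a1 (-0.63, a row shared with Gm17322) was lower at E18.5 without overlap.

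The difference between the stages was tested with limma over all 12 libraries as the day effect at implantation minus the day effect at labor. Cd68 was left out, because the labor row paired with its merged row does not hold it. By the adjusted p 0 of the other 9 genes were called, where 2.7% of 21398 row pairs were, and by the study's criterion 4 were, all with the larger effect at implantation, where 5.43% of pairs were called in that direction. At an unadjusted p under 0.05 limma gave the same 4 genes, where 7.08% of pairs were below that p in that direction. The difference was 1.65 for Csf1r (standard error 0.40, 95% confidence interval 0.77 to 2.52, adjusted p = 0.0519), 1.17 for Adgre1 (standard error 0.31, adjusted p = 0.0711), 1.39 for Mrc1 (standard error 0.43, adjusted p = 0.112) and 1.09 for Ciita (standard error 0.45, adjusted p = 0.221). Cd163, with 1.19 (standard error 0.62, adjusted p = 0.344), did not meet the criterion. The median difference over all pairs was -0.14.

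For the class II chains and Cd74 the difference between the stages lay between -0.16 and 0.38, with intervals that include 0 and, for H2-Eb1, reach from -3.18 to 3.93. Without replicate 3 of E4.5 limma called Csf1r (1.94, adjusted p = 0.00974), Adgre1 (1.30, adjusted p = 0.0367) and Mrc1 (1.81, adjusted p = 0.00255) in the difference between the stages, where 2.6% of pairs were called in that direction. Without replicate 1 of E0.5 it called Adgre1 (1.44, adjusted p = 0.0171) and 0.841% of pairs, and without replicate 1 of E15.5 it called Csf1r (1.86, adjusted p = 0.0384) and 1.33% of pairs.

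The genes whose pattern was most like the members were found by Pearson's r of the log2 level, centred on the mean of each stage, over the 12 libraries and 10552 protein-coding rows, as a description. Most like the mean of the macrophage genes, which takes the merged row for Cd68 at implantation, were Atmin (r = 0.98), the iron exporter Slc40a1 (0.98), the cation channel Trpm4 (0.98), Ccdc80 (0.97) and Rnf128 (0.97). Most like the mean of the antigen presentation genes were Brd9 (0.90), Ring1 (0.89), Rap1b (0.89), Kbtbd4 (0.89) and Adamts10 (0.86). The points share the library and the day, and these rows are the highest of many.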

How the data were processed

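The authors used Cutadapt 1.9 for trimming, Bowtie2 and Tophat2 for alignment, StringTie for assembly and Ballgown for FPKM after merging transcriptomes, and the submitters' processing notes name Bowtie 0.12.2, HISAT2 2.0 and StringTie 1.3.0 and the builds mm8 and mm10. The labels describe poly(A) selection, the methods removal of ribosomal RNA. Both deposited tables hold FPKM per gene, and the implantation table also holds whole-number counts deposited by the authors. How reads were assigned to rows is not given in the sources used here, so reads shared with near-identical class II or class I genes may be split. A value of 0.0001 FPKM there stands for 0 and was set back. RefSeq names in GRCm38 overlapped the rows of all 10 genes. No value column was left unused.

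The tests took rows whose 6 libraries averaged 0.1 FPKM or more and ran in edgeR 4.0.16 on the counts, by its quasi-likelihood F-test after TMM scaling, for E0.5 against E4.5 and limma 3.58.1 (trend) on log2(FPKM + 0.1) for E18.5 against E15.5, where a fold change understates that of low genes. Standard errors beside edgeR's fold changes were taken as the fold change over the root of F and are approximate. The difference between the stages used limma over 12 libraries and row pairs that share Ensembl transcripts and left out Cd68, whose paired row does not hold it. Adjusted p-values follow Benjamini and Hochberg over all rows tested. An exact permutation test of 3 against 3 mice cannot give a two-sided p below 0.1, so none is reported. R was 4.3.3, Python 3.11.15, pandas 2.3.3, NumPy 2.4.6, SciPy 1.17.1 and matplotlib 3.10.9.

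The members and the 19 gene lists were chosen with earlier results of these data known, and 1 gene each of the macrophage and interferon-gamma lists is not reported here. Named genes are the members and, of each list, up to 4 called genes a stage by smallest p and the 2 with the highest mean FPKM. Ptprc, C1qb, Aif1, Tyrobp, Fcer1g, Cx3cr1, Trem2, Csf1 and other list genes outside that rule were named after their values had been seen. The tests were first checked on simulated data. The alternatives were other filters, scalings and pseudocounts, no trend, DESeq2 1.42.0, limma on FPKM, fits with each library omitted and a block for the replicate number. Leaving out both doubted libraries together, leaving out the labor libraries richest in yolk sac genes together, list counts without the libraries that stood apart, and limma with a pseudocount of 1 at implantation were added after the data had been seen. Replicate numbers did not pair the mice, with correlations of the deviations of same-numbered libraries between -0.0664 and 0.0180.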

Additional observations from a re-analysis of the deposited data

Results flagged for a closer look

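The effect of the day differed between the stages at an unadjusted p under 0.05 for 4 genes, by 1.092 on the log2 scale for Ciita, 1.648 for Csf1r, 1.167 for Adgre1 and 1.387 for Mrc1, larger at implantation in each. With limma's adjustment over all row pairs the p-values were 0.221, 0.0519, 0.0711 and 0.112, so none passed the threshold.

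Rows assembled without an Ensembl transcript and carrying a member's name were not used in any comparison. Such a row within Ciita (chromosome 16, 10487341 to 10487687, GRCm38 coordinates) reached 80 counts in replicate 2 of E0.5 and 4 to 30 counts in the other implantation libraries. A row within Adgre1 (chromosome 17, 57382777 to 57383055) reached 56 counts in replicate 1 of E0.5 and 4 to 15 in the others. A row within Cd163 (chromosome 6, 124313443 to 124313978) reached 86 counts in replicate 1 of E0.5, the library with the highest Cd163 level, and 2 to 24 in the others. At the labor stage a row named Cd163 had 1.13, 0.899 and 1.21 FPKM at E15.5 and 1.54, 1.08 and 0.477 FPKM at E18.5. Another of that name had 0.912, 1.93 and 1.75 FPKM at E15.5 and 1.85, 1.92 and 0.921 FPKM at E18.5. Both overlapped between the days, unlike the Cd163 row used in the comparison.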

How the results depend on the processing

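For E0.5 against E4.5, the number of the 10 genes past edgeR's adjusted p was 1, and it became 5 with DESeq2 (Ciita, Csf1r, Adgre1, Mrc1 and Cd163), 3 without both doubted libraries (Csf1r, Adgre1 and Mrc1) and 0 to 2 with 1 library left out. With the replicate block it was 0, Csf1r standing at 1.94 on the log2 scale (adjusted p = 0.122), although the numbers do not pair the mice. The number by the study's criterion was 5, and it became 2 with limma on FPKM and a pseudocount of 1, 3 at a mean of at least 1 FPKM, where Ciita and Cd163 were not tested, and 4 to 5 with 1 library left out. Csf1r had an adjusted p under 0.05 in 9 of 15 alternatives, between 4.85e-06 and 0.195 in all. At the labor stage both numbers were 0 under every alternative run. In the difference between the stages, 0 genes passed the adjusted p, and 1 did with 75th percentile scaling (Csf1r), 1 at a mean of at least 1 FPKM (Csf1r), 3 without both doubted libraries and 0 to 3 with 1 library left out. The study's criterion gave 4 genes there, 2 with a pseudocount of 1 and 3 to 5 with 1 library left out. The share of all rows called by DESeq2 is not given here, so its 5 genes cannot be set against it. The same holds in the difference between the stages for 75th percentile scaling, the filter at 1 FPKM and the fit without both doubted libraries.

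Log2 fold changes near 0 changed sign when a library was left out. At implantation they ran from -0.87 to 0.52 for H2-Aa, which was 0.20 without both doubted libraries, from -0.18 to 0.31 for H2-Ab1, from -0.82 to 1.37 for H2-Eb1, from -0.22 to 0.22 for Cd74 and from -0.0187 to 0.16 for the row with Cd68. At labor they ran from -0.39 to 0.057 for H2-Aa, from -0.19 to 0.17 for H2-Ab1, from -0.33 to 0.0548 for H2-Eb1, from -0.0863 to 0.51 for Cd74 and from -0.33 to 0.10 for Ciita. With replicate 3 of E15.5 and replicate 2 of E18.5 both left out they were 0.0714 for H2-Aa, 0.22 for H2-Ab1, 0.028 for H2-Eb1 and 0.12 for Ciita. In the difference between the stages they ran from -0.68 to 0.78, -0.16 to 0.46, -0.90 to 1.66 and -0.48 to 0.12 for H2-Aa, H2-Ab1, H2-Eb1 and Cd74. The cause of these changes was not tested. Csf1r, Adgre1, Mrc1, Cd163 and Ciita kept their direction at implantation in all alternatives run. The replicate block changed no other call.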

Other observations

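The values in this section were singled out after they had been seen. The spread of H2-Eb1 among the implantation mice was shared by a short row named Gm18734 on chromosome 17 (35303872 to 35304090), 987 kb from H2-Eb1, which had 43, 15 and 0 counts at E0.5 and 0, 14 and 52 counts at E4.5. Its Pearson's r with H2-Eb1 over the 6 libraries was 0.995, the highest of 36697 rows and given as a description. H2-Ea, the alpha chain that pairs with H2-Eb1, lies on the same chromosome (34341959 to 34344645) and had 0, 13 and 61 counts at E0.5 and 67, 592 and 0 counts at E4.5. The libraries with 0 counts of H2-Ea were the libraries with the most counts of H2-Eb1, 1228 and 989, and a count of 0 allows up to 3 counts. A second, longer row of the same name (35304206 to 35306317) did not share the spread, with 27, 27 and 37 counts at E0.5 and 50, 33 and 24 counts at E4.5.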
